A study of Chrysodeixis includens with 4 samples.

Results

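The most finely split genes of a caterpillar transcriptome assembly are described here: the Trinity genes that carried 7 or more expressed loci. A Trinity gene is a group of related contigs that the assembler Trinity names with 1 shared gene number, and a locus is a transcribed stretch of 1 such contig with its own row in the authors' deposited table. All rows of that table were counted by Trinity gene, and every locus of a Trinity gene with at least 7 rows was kept, without regard to its level in either tissue. This gave 32 Trinity genes with 274 loci, of 15437 Trinity genes with 19878 loci in all. The members are named below by their contig names without the leading TRINITY, as in DN11596_c0_g1, and single contigs by the last part of their names, as in i3.

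An assembler without a reference genome joins overlapping reads into graphs and writes each path through a graph as a contig. Splice variants, alleles, closely related gene copies, repeats and incomplete joins can all give several contigs under 1 gene number, so such a group need not be the isoforms of 1 gene. Reads that match several contigs of a group have to be shared among them. No locus in the table carries a gene name or a description, so no function is given to any member.

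The larvae were third-instar soybean loopers (Chrysodeixis includens), caterpillars of a moth of the family Noctuidae that feed on leaves of soybean and other crops. They came from a laboratory colony of over 100 generations, bought from a commercial supplier and first set up at a university, and all 4 libraries share this origin and stage. Larvae were cut into head and body, and each tissue was sequenced as 2 libraries, each from a pool of 5 larvae. Head is compared with body throughout.

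The table gives 1 FPKM value (fragments scaled to locus length and to sequencing depth, the authors' value) for head and 1 for body, with the authors' p and q, and it holds no value per library. The values below therefore have no SD or n. The authors' p-values rest on 2 pools per tissue, which the labels do not describe as separate rearings. How their test estimated the spread of a locus is not given in the sources used here. With no gene names, the labelled tissues could not be checked against markers, and every direction rests on the order of the 2 value columns. Whole heads and bodies mix cell types, so fewer cells of a type and less RNA per cell cannot be told apart. Depth is not stated. Low values of loci of 600 bases or more lay on steps worth 1 fragment, and these steps made the head libraries together 2.15 times as deep as the body libraries.

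The rule has a threshold, and the groups on either side of it are given once. The 12 Trinity genes just inside, with 7 loci, had a median locus length of 509.5 bases and median levels of 21.5 FPKM in head and 35.7 FPKM in body. The 33 Trinity genes just outside, with 6 loci, had a median length of 454 bases and median levels of 13.5 FPKM in head and 19.9 FPKM in body. By FPKM summed over their loci, 6 of the 12 were over 2-fold higher in body and 2 in head, and 12 of the 33 were over 2-fold higher in body and 9 in head.

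The 274 loci lay on 269 contigs. In 27 of the 32 Trinity genes each locus had a contig of its own, and in the other 5 a contig held 2 loci. DN11596_c0_g1 had the most loci, 16, followed by DN13027_c1_g1 with 13, DN12774_c3_g1 with 12, and DN10711_c1_g1 and DN11672_c0_g1 with 11 each. The median was 8 loci. Isoform numbers mostly ran higher than the loci listed: the highest number in a contig name was 71 in DN13027_c1_g1 and had a median of 15.5 over the 32 Trinity genes. Only 1 pair of Trinity genes, DN12986_c0_g1 and DN12986_c1_g2, came from the same read cluster.

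Loci of these Trinity genes were short. Their median length was 401.5 bases (quartiles 272 and 655.5), against 745.5 bases (quartiles 457 and 1261) over all loci, and they ranged from 130 to 4810 bases. Under 300 bases lay 32.5% of the members and 10.3% of all loci. This matters for the levels, because FPKM of a locus near the fragment length divides by a very small effective length. No length was used to choose the members.

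In both tissues the members spanned a wide range of levels, and their medians were above those of all loci. In head the median was 12.9 FPKM (quartiles 2.82 and 58.9), against 9.22 over all loci. In body it was 36.1 FPKM (quartiles 10.9 and 131), against 11.0. The members are 1.38% of the loci and held 5.66% of all FPKM measured in head; for body the share was 4.65%. Most of this came from few Trinity genes. DN12678_c1_g1 alone made up 92.7% of the members' summed FPKM in head, and DN12418_c2_g2 and DN12002_c2_g1 together made up 80.7% in body. Very short loci held much of these sums, and the limit on length given above applies to them. In DN12678_c1_g1, i8 (154 bases) and i4 (159 bases) held 36.1% and 31.8% of the head sum. In DN12418_c2_g2, i9 (130 bases) held 39.2% of the body sum. Without DN12678_c1_g1 the members held 0.411% of all FPKM in head. Without DN12418_c2_g2 and DN12002_c2_g1 they held 0.899% in body.

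**Figure D1:**
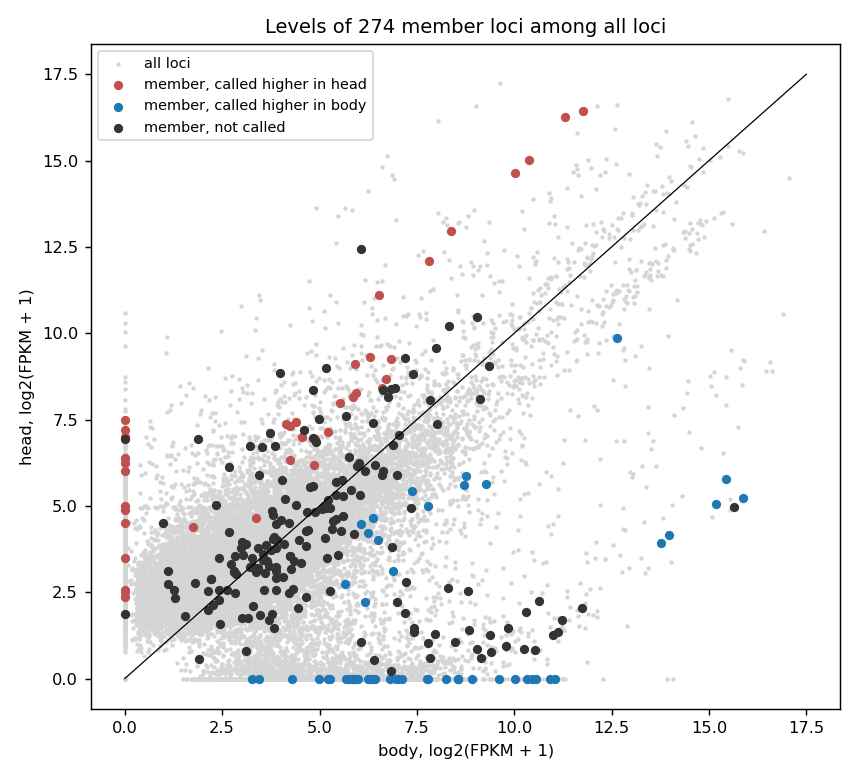
Level of each locus in body (horizontal) and head (vertical), both as log2(FPKM + 1), with all 19878 loci in grey and the 274 member loci coloured by the authors' call. The line marks equal levels. Members lie along the line, in a group far above it near the top (DN12678_c1_g1), and in a band far on the body side that reaches 59682 FPKM in body at 36.4 FPKM in head. Members listed at 0 in head reach 2112 FPKM in body.

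Of the 271 member loci that the authors tested, their deposited table calls 91 (33.6%) at a q under 0.05, against 24.3% of all tested loci. Head was higher in 38 of them (14.0%, against 9.73%) and body in 53 (19.6%, against 14.6%). The higher share was found in short loci. Under 500 bases, 66 of 166 tested members were called (39.8%), against 24.7% of all loci of that length, whereas among loci of 500 bases or more 25 of 105 were called (23.8%), against 24.2%. These 25 were unevenly spread: Trinity genes with 7 loci gave 15 of 40 (37.5%), and those with more loci a share below the background. Loci above 0 in both tissues were called in 43 of 222 cases (19.4%, against 14.8%), 25 of them higher in head (11.3%, against 6.13%) and 18 higher in body (8.11%, against 8.65%). Of these 25, DN11596_c0_g1 gave 11 and DN12678_c1_g1 gave 7, so the higher head share rests mostly on this pair of Trinity genes. Because the members come from only 32 Trinity genes and share reads within them, these shares rest on far fewer independent units than loci, and the difference from the background was not tested.

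Of the calls, 48 of 91 (52.7%) were loci listed at 0 in one tissue, as were 46.2% of all calls in the authors' deposited table. All 35 members listed at 0 in head were called (background 99.5%), as were 13 of the 14 tested members listed at 0 in body (background 97.4%). The exception was XLOC_019811 of DN9972_c4_g1, with 121 FPKM in head, which covers the same bases of its contig as another locus. The 35 loci at 0 in head came from 11 Trinity genes, and 24 of them from 4. No locus within 2-fold was called by the authors' Cufflinks test (1 had an unadjusted p under 0.05), and the smallest called difference was 1.29 on the log2 scale. Here and below, differences are log2((head FPKM + 1)/(body FPKM + 1)), positive where head is higher.

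Differences between the tissues were wide in both directions. More members were over 2-fold higher in body, 112 loci (40.9%, against 28.0% of all loci), than in head, 77 loci (28.1%, against 27.6%). Over 32-fold higher in body were 64 loci (23.4%, against 6.37% of all loci), and over 32-fold higher in head were 9 (3.28%, against 1.16%). With both tissues scaled to TPM, which gives both the same summed value, applied to this count after seeing the data, 38 loci were over 32-fold higher in body (13.9%, against 2.04% of all loci). Of the 64 loci, 42 lay in 6 Trinity genes in which every locus was over 2-fold higher in body, and the rest were spread over 10 others. The members' median difference was -0.28 and that of all loci 0.06. Scaling both tissues to equal upper quartiles moved these medians to 0.10 and 0.43, so the sign of the members' median flipped. Its distance from that of all loci was -0.34 before and -0.33 after. With TPM this distance was smaller, -0.21. With pseudocounts of 0.1 and 5 and with the filters of 10 FPKM and of 500 bases it ran from -0.37 to -0.24.

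**Figure D2:**
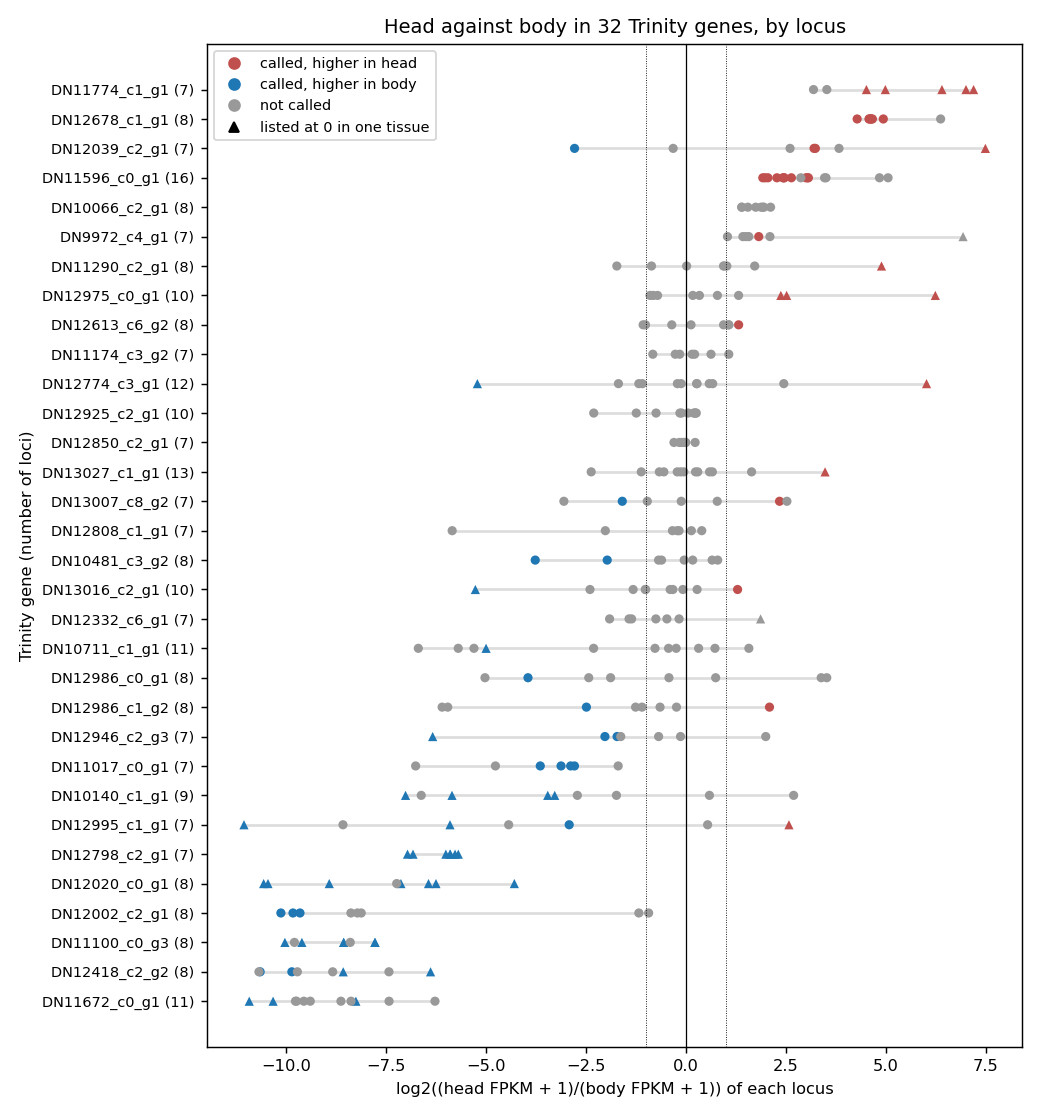
Difference of each locus, log2((head FPKM + 1)/(body FPKM + 1)), for the 32 Trinity genes ordered by their median. Coloured points are loci called in the authors' deposited table, triangles are loci listed at 0 in one tissue, and dotted lines mark 2-fold. At the bottom whole Trinity genes lie far on the body side, at the top whole Trinity genes lie on the head side, and in the middle loci of 1 Trinity gene reach across 0.

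By the size and direction of their loci the 32 Trinity genes fell into 6 kinds. In 6 of them, with 49 loci, every locus was over 2-fold higher in body, and in 5, with 46 loci, every locus was over 2-fold higher in head. In 1 Trinity gene all 7 loci were within 2-fold. Loci were over 2-fold higher in body or else within 2-fold in 4 Trinity genes, and over 2-fold higher in head or else within it in 2. The largest kind, 14 Trinity genes with 122 loci, had loci over 2-fold higher in head beside loci over 2-fold higher in body. A Trinity gene with more loci has more chances to hold both, and these kinds were not counted in the other Trinity genes. The numbers of Trinity genes with every locus in one direction stayed at 6 and 5 when the upper quartiles were made equal, a check chosen after the data were seen. With TPM they were also 6 and 5, while the 14 with loci in both directions became 11.

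DN12418_c2_g2 had the highest summed level in body, and each of its 8 loci was far lower in head. Its loci ranged from 0 to 36.4 FPKM in head, with a median of 2.08, and from 82.3 to 59682 FPKM in body, with a median of 2147. No value in head reached the lowest in body. The summed level was 1510 times higher in body. Its leading locus XLOC_010914, on bases 1 to 278 of contig i3, stood at 36.4 FPKM in head against 59682 FPKM in body. The authors' deposited table calls 4 of its 8 loci. Locus i9 (130 bases) is not among them, at 30.2 FPKM in head against 50818 FPKM in body, with a difference of -10.67 and a q of 0.373 in that table.

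DN11672_c0_g1 was higher in body throughout, at a steadier level across its 11 loci. In head they were listed between 0 and 4.78 FPKM with a median of 0.823, and in body between 303 and 2405 FPKM with a median of 1220. Every locus was over 32-fold higher in body. The authors' deposited table calls only the 3 loci at 0 in head (i1, i2 and i4). The other 8 had differences from -9.76 to -6.27 and p-values from 0.139 to 0.247 in that table. For i1, which is 648 bases long, the body level of 303 FPKM corresponds to 1334 fragments in head. Taking 3 fragments in all as the most that a 0 allows, i1 was at least 445-fold lower in head, a bound for counting error only.

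DN11100_c0_g3 and DN12020_c0_g1 showed the same contrast with more loci at 0. DN11100_c0_g3 had 6 of 8 loci at 0 in head, and the others, i8 and i12, at 1.55 and 3.71 FPKM. In body its loci ranged from 217 to 2244 FPKM. DN12020_c0_g1 had 7 of 8 loci at 0 in head and only i15 above it, at 0.523 FPKM, while body levels ran from 18.5 to 1501 FPKM. The calls followed the zeros exactly: the authors' deposited table calls the 6 and the 7 loci at 0, and neither i8, i12 nor i15. Of these i8 had the highest body level of its Trinity gene, 2244 FPKM.

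DN12798_c2_g1 was the only member with no signal in head at any locus. All 7 loci were listed at 0 there. In body they lay between 50.5 and 123 FPKM, with a median of 58.6, the highest 2.44 times the lowest. All 7 were called higher in body in the authors' deposited table, each with a q of 0.00041. The 4 loci of 600 bases or more would have had 240 to 684 fragments in head at their body level, which puts them at least 79.9-fold to 228-fold lower in head by the same limit.

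The last of these 6, DN11017_c0_g1, was measured in both tissues throughout. Its 7 loci had 1.04 to 57.6 FPKM in head and 35.2 to 622 FPKM in body, with medians of 30.8 and 219. The ranges overlapped, but each locus was higher in body, with differences from -6.75 to -1.69, and the summed level was 10.4 times higher. Called in the authors' deposited table are 4 of them, i5, i9, i10 and i13, with q-values from 0.00041 to 0.00356. The locus of the largest difference, i1, at 1.04 FPKM in head against 219 FPKM in body, was not called (q = 0.259 in that table).

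DN12002_c2_g1 was close to these, with 6 of 8 loci over 32-fold higher in body and 2 that were not. Its 3 most abundant loci, i3, i5 and i6, had 54.2, 32.3 and 16.9 FPKM in head and 44169, 37072 and 16139 FPKM in body, and the authors' deposited table calls these 3. XLOC_008920 is i3, on bases 1 to 254 of its contig. Its 2 longest loci, i10 (1019 bases) and i13 (987 bases), stood apart. They had 9.61 and 3.31 FPKM in head and 19.2 and 8.73 FPKM in body, differences of -0.93 and -1.17. The summed level, 824 times higher in body, therefore describes the abundant loci and not these 2. Loci i1 (651 bases) and i8 (802 bases) were 666 and 476 times higher in body. They had only 0.796 and 1.39 FPKM in head and were not called. The part of length was not tested.

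Over all members, 33 tested loci above 0 in both tissues were over 32-fold higher in body, and the authors' deposited table calls 5 of them. The 5 were the most abundant loci of DN12002_c2_g1 and loci i3 and i5 of DN12418_c2_g2, with 14.1 to 54.2 FPKM in head. The 28 not called, from 12 Trinity genes, had a median of 1.41 FPKM in head (0.174 to 30.2) and a median of 549 FPKM in body (66.4 to 50818). Their p-values in the deposited table took 12 distinct values between 0.0182 and 0.247. Locus i17 of DN10140_c1_g1 is an example with 1 fragment in head: it had 0.174 FPKM there and 114 FPKM in body, and its q was 0.390.

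On the head side, DN12678_c1_g1 was the most abundant member, with even differences among its loci. Its 8 loci had 2199 to 88193 FPKM in head, with a median of 16778, and 66.2 to 3480 FPKM in body, with a median of 682. The summed level was 26.9 times higher in head. XLOC_012212 (i8, bases 98 to 251 of its contig) led in both tissues with 88193 and 3480 FPKM, followed in head by XLOC_012209 (i4, bases 1 to 159) with 77828 FPKM. Of the 8 differences 7 lay between 4.28 and 4.94, and the authors' deposited table calls these 7. Only i9, the shortest at 144 bases, was higher, at 6.37, and was not called (q = 0.144). Its single long locus, i6 of 638 bases, reached 2199 FPKM in head against 90.5 FPKM in body, a difference of 4.59. Reads can be shared between i6 and the short loci, so its value is not independent of theirs, and the part of length was not tested.

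DN11596_c0_g1, the Trinity gene with the most loci, was higher in head in all 16. In head its loci had 20.0 to 628 FPKM with a median of 165, and in body 2.37 to 113 FPKM with a median of 25.0. Differences ran from 1.92 to 5.05, and the summed level was 6.81 times higher in head. The authors' deposited table calls 11 of the 16. Among the 5 not called were the 4 largest differences of the group: i14 (5.05), i5 (4.84), i6 (3.50) and i16 (3.47). The longest locus, i11 of 1952 bases, had the lowest level in both tissues, 20.0 FPKM in head and 2.37 FPKM in body, and was called with a q of 0.00179 in that table.

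By summed level, DN11774_c1_g1 had the largest difference in favour of head. Its 7 loci had 21.7 to 145 FPKM in head, with a median of 83.5, and 5 of them were listed at 0 in body. Only i10, with 0.972 FPKM, and i25, with 10.5 FPKM, had signal in body. The summed level was 46.6 times higher in head. As on the body side, the authors' deposited table calls the 5 loci at 0 and not the other pair. None of its loci reached 600 bases, so no limit in fragments was computed for its zeros.

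DN10066_c2_g1 and DN9972_c4_g1 were over 2-fold higher in head at every locus and were seldom called. The 8 loci of DN10066_c2_g1 had 114 to 1178 FPKM in head and 27.5 to 319 FPKM in body, with differences only from 1.40 to 2.12 and a summed level 3.29 times higher in head. None was called by the authors' Cufflinks test, and the q-values of the 8 loci ran from 0.0965 to 0.414 in the authors' deposited table. Of the 8, 3 had an unadjusted p under 0.05 there, with q-values from 0.0965 to 0.120. DN9972_c4_g1 had 121 to 1407 FPKM in head and 0 to 523 FPKM in body, and its summed level was 3.09 times higher in head. Of its 7 loci the authors' deposited table calls only i5, the longest at 558 bases, with 343 FPKM in head, 96.2 FPKM in body and a q of 0.0453. Its pair of loci on bases 1 to 279 of contig i1 had 1407 and 523 FPKM in one row and 121 and 0 FPKM in the other, and these levels are uncertain because the loci overlap fully. The second row, XLOC_019811, had a difference of 6.93, and the other 6 loci had differences from 1.04 to 2.10.

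The most even Trinity gene between the tissues was DN12850_c2_g1. Its 7 loci ranged from 8.65 to 269 FPKM in head and from 8.68 to 229 FPKM in body, and no difference was beyond -0.30 or 0.23. The summed levels were 585 and 566 FPKM. The levels of its loci thus differed by 31.2-fold among themselves in head and 26.4-fold in body, and the order was nearly the same in both tissues. It was 1 of 6 Trinity genes with no called locus, with DN10066_c2_g1, DN11174_c3_g2, DN12332_c6_g1, DN12808_c1_g1 and DN12925_c2_g1. Of the 46 loci of these 6, 6 had an unadjusted p under 0.05 in the authors' Cufflinks test.

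DN12925_c2_g1, DN11174_c3_g2 and DN12332_c6_g1 were within 2-fold by summed level. DN12925_c2_g1 summed to 231 FPKM in head against 247 FPKM in body over 10 loci, of which only i17 and i18 were over 2-fold apart, with 2.40 and 0.738 FPKM in head and 7.03 and 7.57 FPKM in body. DN11174_c3_g2, with 157 and 150 FPKM, had the longest loci by median, 859 bases, and 1 locus over 2-fold higher in head. DN12332_c6_g1 was the weakest Trinity gene in body apart from DN11774_c1_g1, with 33.8 FPKM in head and 61.8 FPKM in body, and 2 of the 3 untested members belonged to it. DN12808_c1_g1 had 103 and 209 FPKM. A single locus of it, i2, carried the contrast, with 0.465 FPKM in head and 82.9 FPKM in body, while 5 of the other 6 lay within 2-fold.

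**Figure D3:**
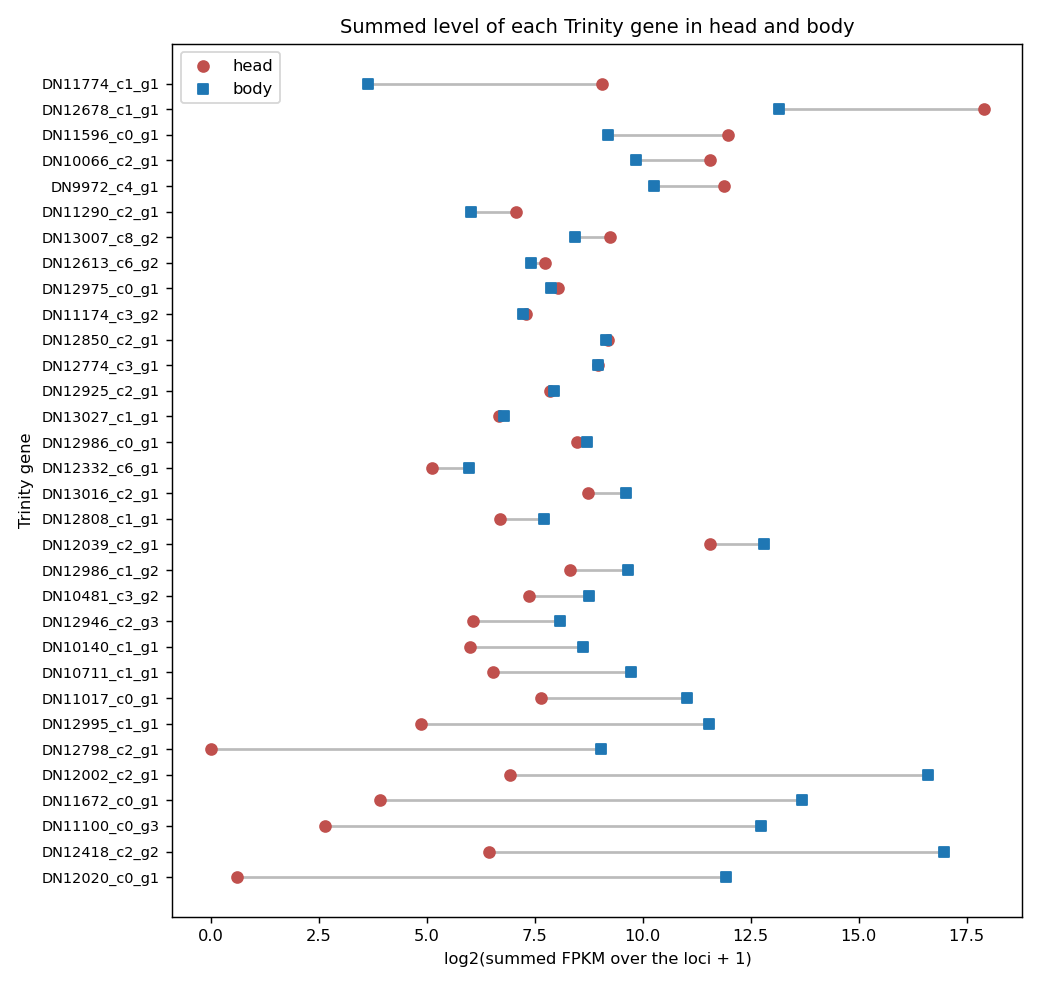
Summed FPKM of each of the 32 Trinity genes in head (red circles) and body (blue squares), as log2(summed FPKM + 1), ordered by the difference. DN12678_c1_g1 has the highest point in head, DN12418_c2_g2 in body, and DN12798_c2_g1 lies at 0 in head.

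Counted by summed level, 15 of the 32 Trinity genes (46.9%) were more than 2-fold higher in body, against 27.1% of all Trinity genes, 6 (18.8%, against 27.8%) were over 2-fold higher in head, and 11 were within 2-fold. With equal upper quartiles or with TPM the split was 11 in body and 7 in head. These scalings shifted the log2 ratios toward head, by 0.41 and 0.39 before the pseudocount. The shares over all Trinity genes were not recomputed for them, so the rescaled counts have no matching background. Over 32-fold higher in body were 7 (21.9%, against 6.15%), and 1, DN11774_c1_g1, was over 32-fold higher in head (3.12%, against 1.08%). Among the 33 Trinity genes with 6 loci, 5 were over 32-fold higher in body (15.2%).

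In 6 Trinity genes the authors' deposited table calls loci in both directions. The clearest was DN12039_c2_g1, where 5 of 7 loci were over 2-fold higher in head and the most abundant locus was higher in body. Its locus i14 stood at 925 FPKM in head against 6369 FPKM in body, a difference of -2.78 with a q of 0.00041. Against this i16 had 551 and 58.9 FPKM, i12 had 165 and 16.6 FPKM, and i8 had 178 FPKM and 0, all called higher in head with q-values of 0.00356, 0.00112 and 0.0138 in that table. By sum the Trinity gene was 2.39 times higher in body, although its median locus was higher in head, with a difference of 3.20.

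DN12995_c1_g1 had the widest spread of all, from -11.04 to 2.58. Its locus i2 was listed at 0 in head and 2112 FPKM in body, and i7 at 0.498 and 568 FPKM. Its 1239-base locus i4, in contrast, had 4.97 FPKM in head and was listed at 0 in body, where its head level would have given 23.6 fragments, so that it was at least 7.88-fold lower in body. The authors' deposited table calls i2, i9 and i11 higher in body and i4 higher in head. The 3 longest loci, i4, i9 and i10, had the lowest body levels, from 0 to 49.6 FPKM.

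Opposite calls also stood in 4 other Trinity genes. DN12774_c3_g1 summed to 499 FPKM in head against 501 FPKM in body over 12 loci. Its 2 called loci were each listed at 0 in a different tissue, i4 with 63.7 FPKM in head and i8 with 36.0 FPKM in body. DN13016_c2_g1 had 423 and 781 FPKM, with its 4158-base locus i28 called higher in head at 24.2 and 9.30 FPKM and i17 called higher in body at 0 and 37.4 FPKM. In DN13007_c8_g2 the authors' deposited table calls i23 higher in head, at 310 and 60.4 FPKM, and i14 higher in body, at 21.4 and 66.4 FPKM. DN12986_c1_g2 summed to 319 FPKM in head and 804 FPKM in body, 2.52 times higher in body, and paired i3, at 79.9 and 18.0 FPKM, with i11, at 15.2 and 89.6 FPKM. Over all members there were 190 pairs of called loci within a Trinity gene, of which 180 went the same way and 10 went opposite ways. A few Trinity genes dominate this count, since pairs multiply with calls. DN11596_c0_g1 alone gave 55 pairs, and DN12020_c0_g1, DN12678_c1_g1 and DN12798_c2_g1 gave 21 each, all the same way. The pairs share reads and are not independent. By Trinity gene, 6 of the 26 with any call had calls in both directions.

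Another 8 Trinity genes had loci over 2-fold in both directions without opposite calls. DN12986_c0_g1 was divided: i6 and i8 had 137 and 106 FPKM in head and 12.2 and 8.32 FPKM in body, while i4 and i10 had 1.08 and 3.63 FPKM in head and 66.4 and 70.3 FPKM in body. The authors' deposited table calls only i10 of these. In DN10711_c1_g1, with a summed level 9.33 times higher in body, the body signal lay in i10, i13 and i17 at 250, 146 and 316 FPKM, where head had 1.43, 2.75 and 5.15 FPKM, and only i18 was called. The 4 calls of DN10140_c1_g1 were its 4 loci at 0 in head, with 8.70 to 128 FPKM in body. DN12946_c2_g3 had 3 calls higher in body, among them the 1023-base locus i1 at 0 in head and 79.3 FPKM in body, at least 214-fold lower in head by the limit of 3 fragments.

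The remaining 4 of these held 1 call or none. DN13027_c1_g1, with 13 loci, had low levels throughout, 1.76 to 15.4 FPKM in head and 0 to 15.6 FPKM in body, and 1 call, i13, which was listed at 0 in body. Of its 13 loci 4 were over 2-fold apart, with differences from -2.37 to 3.48. DN11290_c2_g1 was 2.07 times higher in head by sum, and its only call was i15, with 28.7 FPKM in head and 0 in body. DN12613_c6_g2 held the longest member, i11 of 4810 bases, at 71.7 FPKM in head against 28.1 FPKM in body, which was its only call (q = 0.0270 in the authors' deposited table). DN12332_c6_g1, also in this kind, had no call.

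Another 2 Trinity genes had loci in one direction or within 2-fold. DN12975_c0_g1 summed to 263 FPKM in head against 232 FPKM in body over 10 loci, and its 3 calls, i7, i10 and i13, were its 3 loci at 0 in body, with 74.4, 4.73 and 4.19 FPKM in head. DN10481_c3_g2 was 2.62 times higher in body by sum. The authors' deposited table calls its loci i1 and i19, at 41.8 and 7.70 FPKM in head and 166 and 117 FPKM in body.

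Within a Trinity gene, 1 locus held over 50% of the summed FPKM in 7 Trinity genes in head and in 4 in body. The leading locus had a median share of 38.7% in head and 34.7% in body, with ranges of 15.3% to 100% and 14.3% to 91.5%. In 12 of the 31 Trinity genes with signal in both tissues the same locus led in head and body, and in 19 it did not. Among the 19, DN12020_c0_g1, DN11100_c0_g3 and DN11672_c0_g1 summed to only 0.523, 5.26 and 14.1 FPKM in head. DN11774_c1_g1 summed to 11.4 FPKM in body. At such low sums the leading locus is uncertain. DN12020_c0_g1 and DN11774_c1_g1 also gave the upper ends of the ranges, 100% and 91.5%. Among loci of 500 bases or more the same locus led in 12 of the 23 Trinity genes with signal in both tissues. The shift between the head and body profiles, the percent of summed FPKM that would have to move between loci to turn one into the other, had a median of 33.1% (quartiles 16.1% and 51.0%). It was smallest in DN12678_c1_g1 (5.41%), DN12850_c2_g1 (5.58%) and DN10066_c2_g1 (7.23%), and largest in DN12020_c0_g1 (94.2%), DN12995_c1_g1 (91.3%) and DN10140_c1_g1 (82.9%). The value for DN12020_c0_g1 rests on 1 locus above 0 in head.

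**Figure D4:**
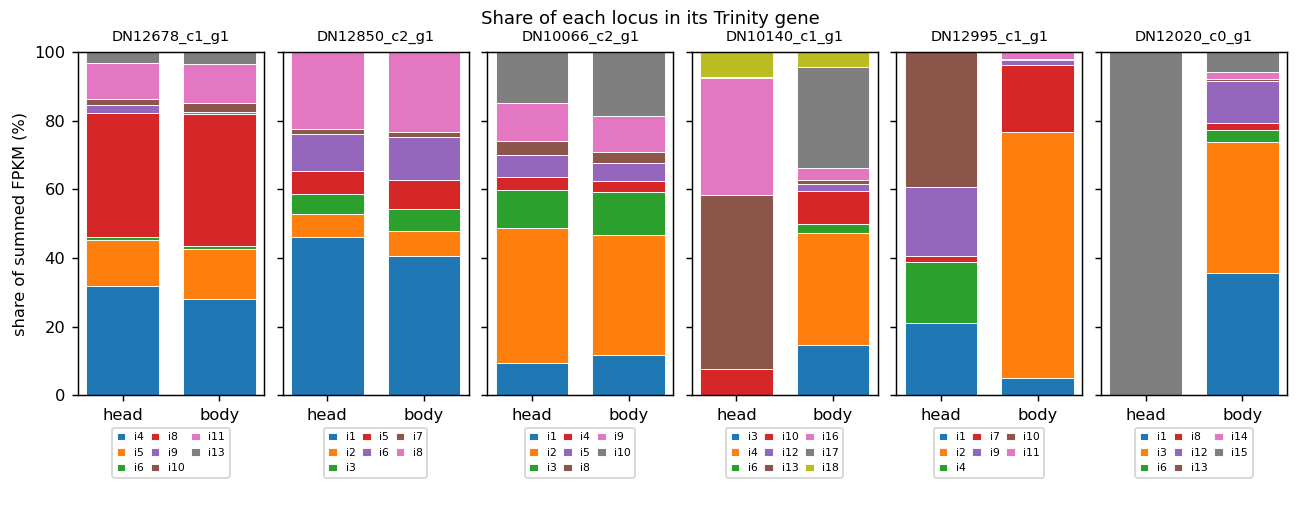
Share of each locus in the summed FPKM of its Trinity gene (percent, stacked by contig) in head and body, for the 3 Trinity genes with the smallest and the 3 with the largest shift between tissues, chosen after their values were seen. The first 3 pairs of bars are nearly alike, with shifts of 5.41% to 7.23%, and the last 3 differ by 82.9% to 94.2%.

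The leading loci show how far a profile could shift. In DN12995_c1_g1, i2 made up 71.7% of the body signal and 0% of the head signal, where i10 led with 39.2%. In DN10140_c1_g1, i13 led in head with 50.7% and held 1.04% in body, where i4 led with 32.8%. In DN12039_c2_g1, i14 led in both tissues but held 30.8% in head and 89.0% in body. By contrast i8 of DN12678_c1_g1 held 36.1% in head and 38.3% in body. The rank correlation of head and body levels over the loci of a Trinity gene, a description over 7 to 16 loci that share reads, had a median of 0.43 over 31 Trinity genes and ranged from -0.67 in DN12986_c0_g1 to 1.00 in DN9972_c4_g1.

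Loci of 1 Trinity gene were spread over a wide range of differences. The SD of the differences within a Trinity gene, which describes loci and not replicates, had a median of 1.72, from 0.16 in DN12850_c2_g1, 0.27 in DN10066_c2_g1 and 0.52 in DN12798_c2_g1 to 3.25 in DN12039_c2_g1, 3.78 in DN12002_c2_g1 and 4.81 in DN12995_c1_g1. In loci of 500 bases or more the median was 0.98. Membership in a Trinity gene accounted for 78.0% of the sum of squares of the differences over the 274 loci. In Trinity genes with 6 loci this share was 87.5%, with 4 or 5 80.3%, with 3 78.2% and with 2 87.4%. Fewer loci per Trinity gene raise such a share by construction. The mean difference between pairs of loci of 1 Trinity gene had a median of 1.91, against 1.28 in Trinity genes with 6 loci, 1.18 with 4 or 5, 0.92 with 3 and 0.69 with 2. More loci give a mean over more pairs, which can raise this median at equal spread, so the classes are not strictly comparable. Locus length moved with the level within a tissue. Shorter loci tended to have higher levels in 22 of 31 Trinity genes in head and 21 of 32 in body, with median rank correlations of -0.26 and -0.33. The part of length in the spread was not tested.

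Set beside the other Trinity genes, several values changed with the number of loci. Median locus length was 758 bases for Trinity genes with 1 locus, 786 with 2, 717 with 3, 594 with 4 or 5, 454 with 6 and 401.5 with 7 or more. The share of tested loci called in the authors' deposited table was 23.3%, 24.8%, 25.4%, 29.6%, 34.2% and 33.6% in the same order. In loci of 500 bases or more it was 23.8%, 25.3%, 23.1%, 25.0%, 25.3% and 23.8%. Over 32-fold higher in body were 5.77%, 5.72%, 7.38%, 8.32%, 17.2% and 23.4% of the loci, and with TPM 1.40%, 1.84%, 3.57%, 3.69%, 9.60% and 13.9%. Without TPM, Trinity genes with exactly 7 loci stood at 15.5%, below those with 6. Over 32-fold higher in head were 0.94%, 0.86%, 1.27%, 3.69%, 5.56% and 3.28%. Loci listed at 0 in head were 5.95%, 8.10%, 6.96%, 9.17%, 11.1% and 12.8% in that order. Those at 0 in body were 5.14%, 4.26%, 3.09%, 6.32%, 2.53% and 5.47%, without a steady rise. The last 2 classes hold only 33 and 32 Trinity genes, whose loci share reads, and no change over the classes was tested.

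**Figure D5:**
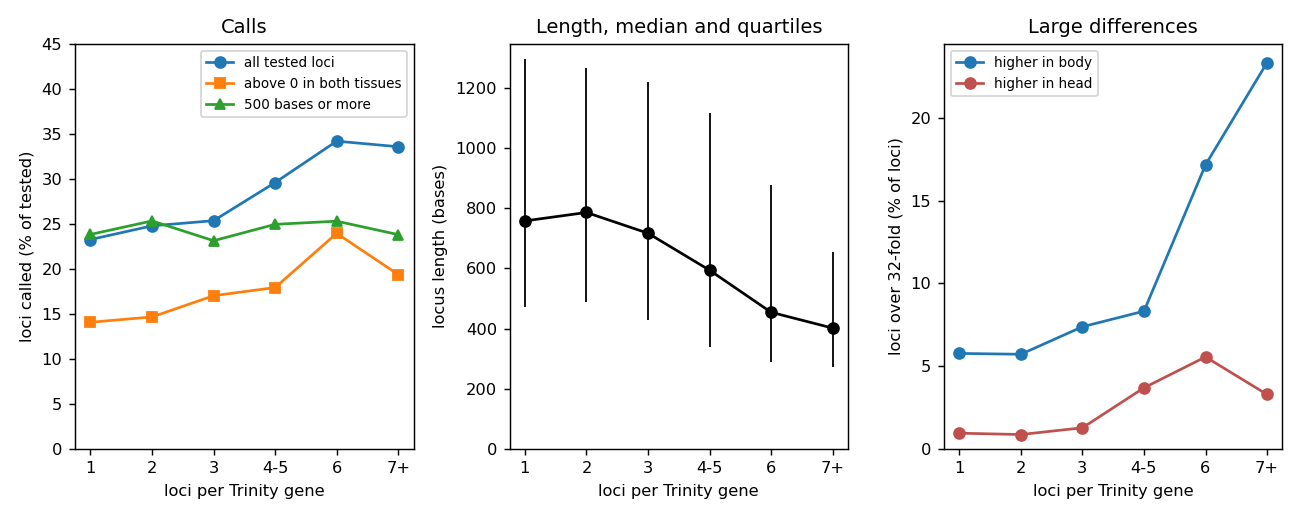
Loci grouped by the number of loci of their Trinity gene (horizontal). Left, percent of tested loci called in the authors' deposited table, for all loci, loci above 0 in both tissues and loci of 500 bases or more; middle, locus length in bases (point, median; line, quartiles); right, percent of loci over 32-fold higher in one tissue. The share called is 23.3% to 34.2% over all loci and 23.1% to 25.3% in loci of 500 bases or more, while the median length falls from 758 to 401.5 bases.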

How the data were processed

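RNA from head and body was extracted with Trizol and made into libraries with an Illumina TruSeq kit, per the labels' protocols. TopHat and Cufflinks are named in the submitters' processing notes. Settings and versions: not given in the sources used here. The authors deposited 1 table of FPKM values per tissue, a test statistic (a score), p-values and q-values, per the file headers. Contig names are in the style of Trinity, per the file. The authors' log2 ratios were not used, and differences were recomputed with a pseudocount of 1. Calls are the authors' q under 0.05, since 1 value per tissue allows no new test, and q-values recomputed by Benjamini-Hochberg matched theirs to within 5.2e-07. Locus starts are given from 1.

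The worth of 1 fragment was read from FPKM × (length − offset)/1000 in loci of 600 bases or more, with an offset of 201 bases in head and 200 in body, and limits for a value of 0 use 3 fragments. The step and adjustment procedures were tested on simulated data. Members and lists were chosen with earlier results of these data known. The 20 Trinity genes of the naming rule (most loci, highest levels, extreme ratios, most calls, calls in both directions, extreme SD) are described with the other 12, since each is a member. Alternatives were a stricter q, filters on level and length, other thresholds on the number of loci, pseudocounts and scalings. No sequence of the contigs was used here. Software: matplotlib 3.10.9, scipy 1.17.1, pandas 2.3.3, numpy 2.4.6, Python 3.11.15.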

Additional observations from a re-analysis of the deposited data

How the results depend on the processing

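The 91 called loci (38 higher in head, 53 in body) became 43 (25 and 18) among loci above 0 in both tissues, 25 (7 and 18) among loci of 500 bases or more and 157 (67 and 90) with Trinity genes of 6 or more loci, by construction fewer or more loci. Calls higher in head fell to 20 at a q under 0.01, and calls higher in body to 34 with 8 or more loci. The median difference of -0.28 turned to 0.10 with equal upper quartiles and 0.0683 with TPM. It was -0.21 with a pseudocount of 5, -0.58 among loci of 10 FPKM or more, -0.37 among loci of 500 bases or more, -0.15 with 6 or more loci and -0.41 with 8 or more. In loci of 500 bases or more the leading share was 50.6% in head and 56.9% in body, with fewer loci per Trinity gene, and the median SD was 0.98. That SD was 2.40 with a pseudocount of 0.1 and 1.22 with 5. Loci over 32-fold higher in body numbered 38 with TPM (13.9%, against 2.04% of all loci), an alternative added after seeing the data in which a pseudocount of 1 weighs more because summed values are lower.

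No paired analysis was possible because replicates are merged into 1 value per tissue in the deposited table. Leaving out replicates was not run for the same reason. Summed levels over 2-fold and the count of shared leading loci stayed within 1.5 times of 21 and 12 under each alternative run, but the 12 were of 31 Trinity genes with signal in both tissues and, in loci of 500 bases or more, of 23. A value of 0 in body is the weaker limit, since head was 2.15 times as deep.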
